A study of Homo sapiens with 11 samples.

Results

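ATF4 and the genes known to respond to it were followed through EGF withdrawal in hTert-HME1, a telomerase-immortalised line of normal human breast epithelium. The set holds 44 genes, chosen by name for their known function. No rule on their values picked them, but earlier results of these data were known when they were chosen. They were sorted by role into 8 transcription factors, 6 stress effectors and secreted or receptor targets, 12 enzymes of amino acid and one-carbon metabolism, 8 amino acid transporters and 10 cytosolic tRNA synthetases. All 44 were found among the 40460 genes of the deposited table. All 44 also had a value of at least 3.32 on the log2 scale in 2 or more libraries, and so belong to the 17945 genes tested. The lowest value of any member, 5.20 for STC2, lay well above that limit, and no member lay just outside it.

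ATF4 is a basic leucine zipper transcription factor and the main effector of the integrated stress response. Kinases that sense uncharged tRNA, misfolded protein or other stress phosphorylate the initiation factor eIF2alpha, which slows most translation while the ATF4 mRNA is translated more. The complex mTORC1, which reads growth factors and amino acids, is also known to raise ATF4. ATF4 binds DNA with C/EBP partners and turns on genes for amino acid synthesis, amino acid import and tRNA charging.

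The tested libraries came from 4 groups, all at passage 6. The labels give 3 libraries with BRCA2 siRNA grown without EGF (replicates A, B and C) and 2 with control siRNA grown without EGF (A and C). They give 3 with BRCA2 siRNA and 3 with control siRNA grown in complete medium with EGF (A, B and C each). Every group was transfected with RNAiMAX and grown in mammary epithelial growth medium, so none is untransfected. Each target had a single siRNA, and the time without EGF is not given in the sources used here. The labels call A, B and C biological replicates of 1 line without saying how the cultures were kept apart. The p-values thus measure only the spread between these libraries as deposited. The deposited values had been centred, with equal means of replicate A and of B and C in every gene. A mean difference between A and the rest was thus removed before the test, and the main fit had no term for A. The design crosses siRNA with EGF. It asks what withdrawal does under each siRNA, what the BRCA2 siRNA does in either medium, and whether the withdrawal effect differs between siRNAs.

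The promoters of many members carry the letters TGATGNAA, a short form of the C/EBP-ATF response element through which ATF4 acts. They were searched on both strands (TTNCATCA on the other strand, with no other motif searched) in RefSeq windows of build GRCh38.p14 that run from 250 bases before to 50 bases after a gene's start. A window was given for 38 of the 44 members. Of these, 17 held the letters (44.7%), against 348 of 11420 tested genes with a window (3.05%). By window, 17 of 66 member windows held them (25.8%), against 1270 of all 35116 windows (3.62%). They were found in 6 of 9 synthetases, 5 of 8 transporters, 3 of 7 transcription factors, 2 of 8 enzymes and 1 of 6 stress effectors. ASNS, the asparagine synthetase whose promoter is the classic example of this element, is shown over the 100 bases before its start (GRCh38.p14, chr7:97872409-97872508, minus strand), with the matching letters in capitals.
ASNS: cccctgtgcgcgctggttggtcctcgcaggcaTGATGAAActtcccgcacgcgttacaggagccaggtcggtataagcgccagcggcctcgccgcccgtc

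The members below carried the letters and stand for each role in the results that follow. Each is shown on the strand of its gene with 10 bases on either side, so TTGCATCA is the element on the opposite strand. CHAC1 lies at chr15:40953252-40953279 (plus), BCAT1 at chr12:24949132-24949159 (minus), CEBPG at chr19:33374061-33374088 (plus), MARS1 at chr12:57488054-57488081 (plus), GARS1 at chr7:30594835-30594862 (plus), SLC1A4 at chr2:64989382-64989409 (plus) and SLC1A5 at chr19:46784894-46784921 (minus).
CHAC1: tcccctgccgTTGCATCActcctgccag
BCAT1: gtcttcctgcTGATGCAAtccgctaggt
CEBPG: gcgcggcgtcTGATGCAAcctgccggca
MARS1: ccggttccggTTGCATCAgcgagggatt
GARS1: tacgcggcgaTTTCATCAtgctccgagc
SLC1A4: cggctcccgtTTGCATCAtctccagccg
SLC1A5: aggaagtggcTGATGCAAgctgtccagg

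Members with and without the letters are set side by side here. Under control siRNA, 14 of the 17 members with the letters fell on withdrawal, with a median log2 difference of -1.24. Of the 21 members whose window lacked them, 16 fell, with a median of -1.15. ATF3, SLC1A5 and SLC3A2 held the letters and did not pass the test. A match is a description of these letters in this window, not evidence of binding.

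Some facts of the libraries bear on every value below. The files hold log2 values without counts, so depth is unknown and no counting interval is given. No correction for gene length is stated, so levels are not compared between genes. BRCA2 itself was measured at 12.48, 12.27 and 12.11 in the libraries labelled BRCA2 siRNA without EGF, against 11.44 and 11.65 in the control libraries without EGF. With EGF it was at 12.43, 12.37 and 12.40 under the BRCA2 label, against 12.45, 12.13 and 12.48 under the control label. Without EGF, BRCA2 was higher under the BRCA2 label by 0.74 ± 0.13 (limma adjusted p = 0.00397). With EGF the difference was 0.05 ± 0.12 and did not pass. On withdrawal under control siRNA, BRCA2 fell by 0.81 ± 0.13 (limma adjusted p = 0.000444). The BRCA2 label thus came with no lower BRCA2 mRNA in either medium, and groups are named by label only. All 8 basal mammary markers passed the filter, with KRT5 between 17.21 and 18.78, and on control withdrawal 5 rose and 1 fell. Of 8 luminal markers 5 passed (KRT7, KRT8, KRT18, ESR1 and GATA3), of which 2 rose and 2 fell, and KRT19, EPCAM and PGR stayed below it. Of 8 fibroblast markers 7 passed, all but COL1A2, and 6 of these rose on control withdrawal. Their summed level was 11.85 to 12.57 under the BRCA2 label without EGF, 13.05 to 13.17 in control libraries without EGF, 10.88 to 11.05 under the BRCA2 label with EGF and 10.73 to 11.10 in control libraries with EGF. Of 6 leukocyte and endothelial markers used here KDR and CD14 passed, while PTPRC, CD3E, CDH5 and VWF did not. KDR rose by 2.51 and CD14 by 2.00 on control withdrawal, and without EGF they had -1.89 and -1.04 under the BRCA2 label relative to control siRNA, which passed in both. The summed level of this list was 8.20 to 8.79 under the BRCA2 label without EGF, 10.23 to 10.45 in control libraries without EGF, 7.57 to 8.50 under the BRCA2 label with EGF and 7.53 to 8.64 in control libraries with EGF. The part of these markers in the results was not tested. In bulk samples, fewer cells of a type and less RNA per cell cannot be told apart. In the GENCODE v29 annotation, 12 of the 44 members share exon bases with a tested gene on the opposite strand, among them DDIT3 with MARS1 (355 bases). Whether reads were counted by strand is not given in the sources used here, so values of such pairs may share reads.

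Replicate C stood apart among the libraries with EGF. In control libraries with EGF, replicate C was the lowest of the 3 in 41 of the 44 members, and under the BRCA2 label with EGF also in 41. Control replicate B exceeded control replicate C by a median of 0.83 over the members, against 0.02 over all tested genes. Under the BRCA2 label the same difference had a median of 0.69, against -0.00 over all tested genes. Replicate B exceeded C in 41 of the 44 members under either siRNA label. Of all 17945 genes, 9244 did so under control siRNA and 8954 under the BRCA2 label. In 8 members, not counting PRODH, which was higher without EGF, control replicate C with EGF lay within or below the range of the control libraries without EGF. How often replicate C was lowest, or lay within or below that range, was not counted over all genes. The fit shares 1 estimate of spread per gene over all 4 groups, so the spread with EGF enters the error of every comparison. It was not the widest in every member. BCAT1 had an SD of 0.49 under the BRCA2 label without EGF, against 0.27 under that label and 0.30 under control siRNA with EGF. Values without the replicate C libraries with EGF are given where they change a count.

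**Figure D1:**
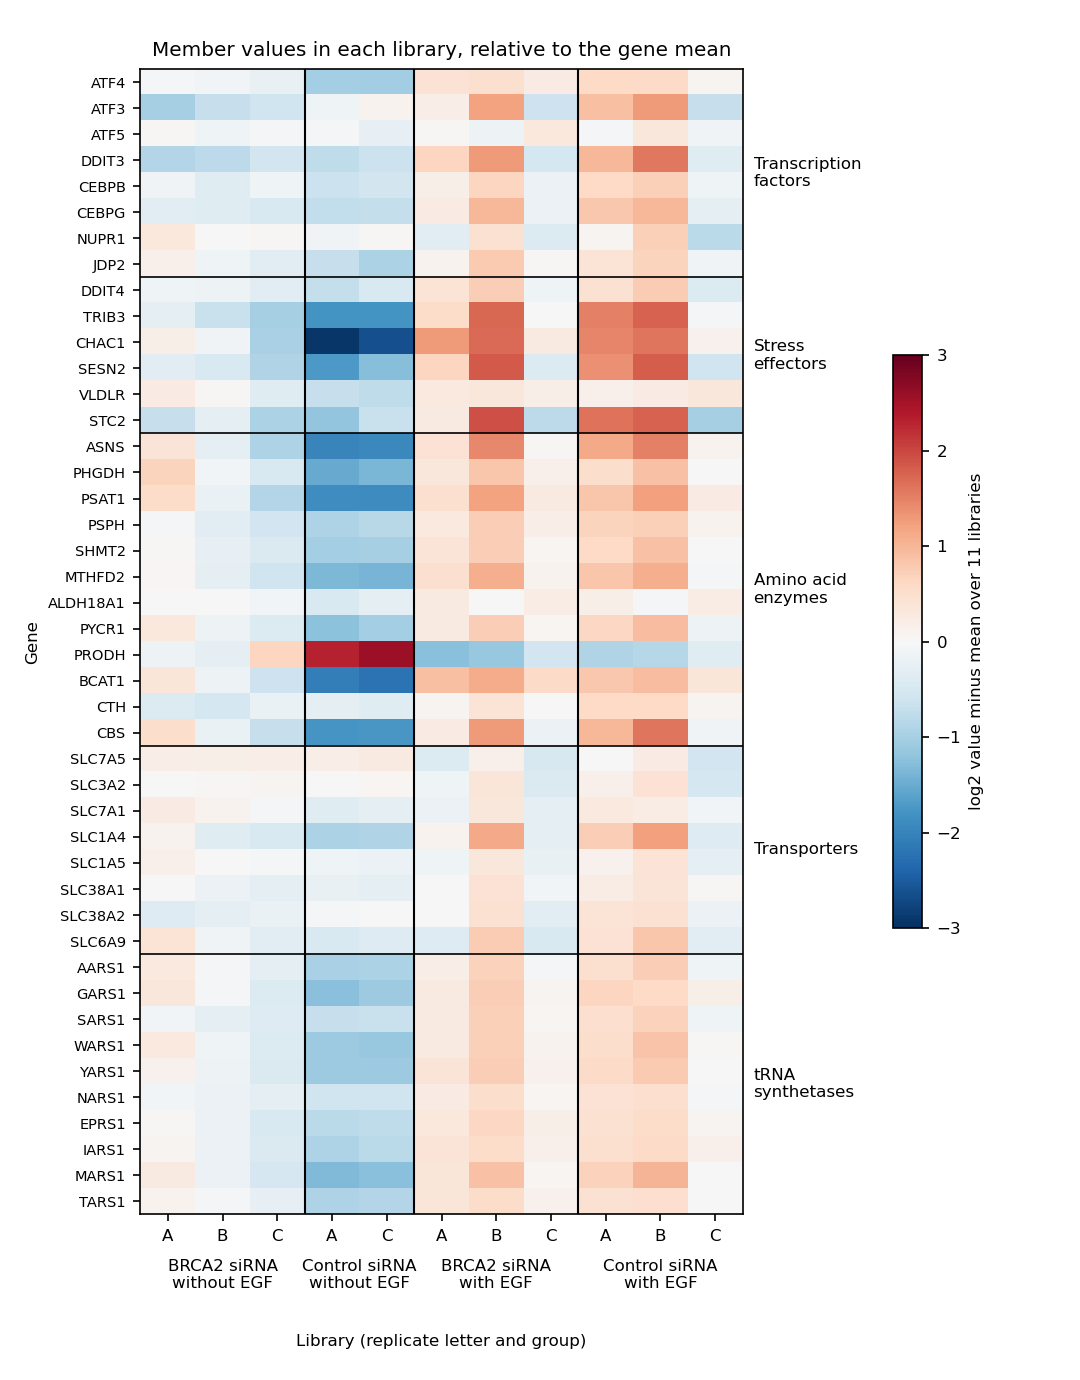
Log2 value of each member in each of the 11 libraries minus its mean over all 11, with genes down the page by role and libraries across by group and replicate letter. The 2 control libraries without EGF are lowest (blue) for most genes and highest (red) for PRODH, and replicate C with EGF is paler than A and B in both siRNA groups.

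Most of these genes were lower after EGF withdrawal under control siRNA. In limma's moderated test, with Benjamini-Hochberg adjustment over all tested genes, 34 of the 44 members fell, 1 rose (PRODH) and 9 did not pass. Over all 17945 genes 50.8% were called, 26.1% lower and 24.7% higher. The median log2 difference was -1.26 over the members and -0.00 over all genes. All 10 synthetases fell, as did 11 of 12 enzymes, 5 of 6 stress effectors, 5 of 8 transcription factors and 3 of 8 transporters. In 35 members every library without EGF lay below every control library with EGF, an arrangement found in 33.6% of all genes. When any 1 library was left out, 27 to 39 members were called (34.3% to 55.9% of all genes), and 26 of the 35 calls held each time. Without both replicate C libraries with EGF, 40 members were called (57% of all genes), 39 lower and 1 higher. Within replicate letters, the median over the members was -1.43 in A and -0.74 in C, against -0.01 and -0.01 over all genes.

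ATF4 (ENSG00000128272) was at 13.59 and 13.55 in control libraries without EGF, against 15.19, 15.17 and 14.68 with EGF. Both libraries without EGF lay more than 1 log2 unit below the lowest with EGF. The mRNA fell 2.72-fold, by 1.44 ± 0.14 on the log2 scale (moderated SE, limma adjusted p = 2.93e-05). Over the 11 libraries, the genes outside the set whose values ran most like ATF4 were MCRS1, PNO1, PFKP, SKA1 and SQOR, with Pearson r of 0.997, 0.996, 0.996, 0.994 and 0.993. Such values describe libraries that share 4 groups, so they carry no test. Among members, r with ATF4 was 0.99 for CHAC1 and TARS1 and -0.98 for PRODH. It was 0.14 for SLC3A2 and -0.37 for SLC7A5.

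The other transcription factors split. DDIT3 encodes CHOP, a stress-induced C/EBP family member, and CEBPG encodes a C/EBP partner of ATF4. DDIT3 was at 6.75 and 6.87 in control libraries without EGF, against 8.51, 9.08 and 7.15 with EGF. The groups did not overlap, but replicate C with EGF lay close to the libraries without EGF. DDIT3 fell by 1.43 ± 0.53 (limma adjusted p = 0.0422). The call was lost in 8 of the 11 fits that left out a library, all but those without BRCA2-labelled replicates B or C with EGF or control replicate C with EGF, with adjusted p up to 0.155 in limma. CEBPG was at 11.58 and 11.59 without EGF, against 13.11, 13.30 and 12.04 with EGF, a fall of 2.36-fold (adjusted p = 0.0135 in limma). This call was lost without control replicate A without EGF (adjusted p = 0.0679 in limma) or control replicate C without EGF (0.0632). CEBPB and JDP2, which also pair as leucine zippers, fell by 0.99 ± 0.25 and 1.14 ± 0.26, CEBPB with an adjusted p of 0.0542 in limma without control replicate A without EGF. ATF3 was at 10.22 and 10.45 in control libraries without EGF, against 11.25, 11.63 and 9.65 with EGF. Replicate C with EGF lay below both libraries without EGF, and ATF3 did not pass (-0.51 ± 0.55, adjusted p = 0.464 in limma). Without both replicate C libraries with EGF, ATF3 had -1.11 and passed. NUPR1, a stress-induced chromatin protein, was at 10.55 and 10.67 without EGF, inside the 10.72, 11.35 and 9.84 with EGF. ATF5 had -0.21 ± 0.17 and did not pass.

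Stress effectors had the lowest median of the 5 roles, -2.04. CHAC1 encodes an enzyme that breaks down glutathione, TRIB3 a pseudokinase that restrains ATF4 and AKT signalling, and SESN2 a sestrin that inhibits mTORC1 when leucine is scarce. CHAC1 was at 6.37 and 6.65 in control libraries without EGF, against 10.75, 10.89 and 9.42 with EGF. The 2 groups were far apart, and the fall was 14.4-fold (-3.85 ± 0.49, limma adjusted p = 0.000106). TRIB3 was at 9.74 and 9.75 without EGF, against 13.05, 13.30 and 11.48 with EGF. It fell 7.28-fold (-2.86 ± 0.53, adjusted p = 0.00113 in limma), with no overlap. SESN2 was at 9.02 and 9.46 in control libraries without EGF, against 12.10, 12.54 and 10.13 with EGF. Replicate C with EGF was again nearest to the libraries without EGF. SESN2 fell by 2.35 ± 0.68 (limma adjusted p = 0.0136), and the call was lost without control replicate A without EGF (-2.14, adjusted p = 0.089 in limma). VLDLR, a lipoprotein receptor, fell by 0.97 ± 0.16, and DDIT4, an mTORC1 inhibitor, by 0.87 ± 0.30. The DDIT4 call was lost without any 1 of the control libraries other than replicate C with EGF, with values of -0.99 to -0.62. STC2, a secreted glycoprotein, was at 5.20 and 5.71 without EGF, against 8.01, 8.15 and 5.39 with EGF. Its replicate C lay between the libraries without EGF, and STC2 did not pass (-1.73 ± 0.83, adjusted p = 0.102 in limma).

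**Figure D2:**
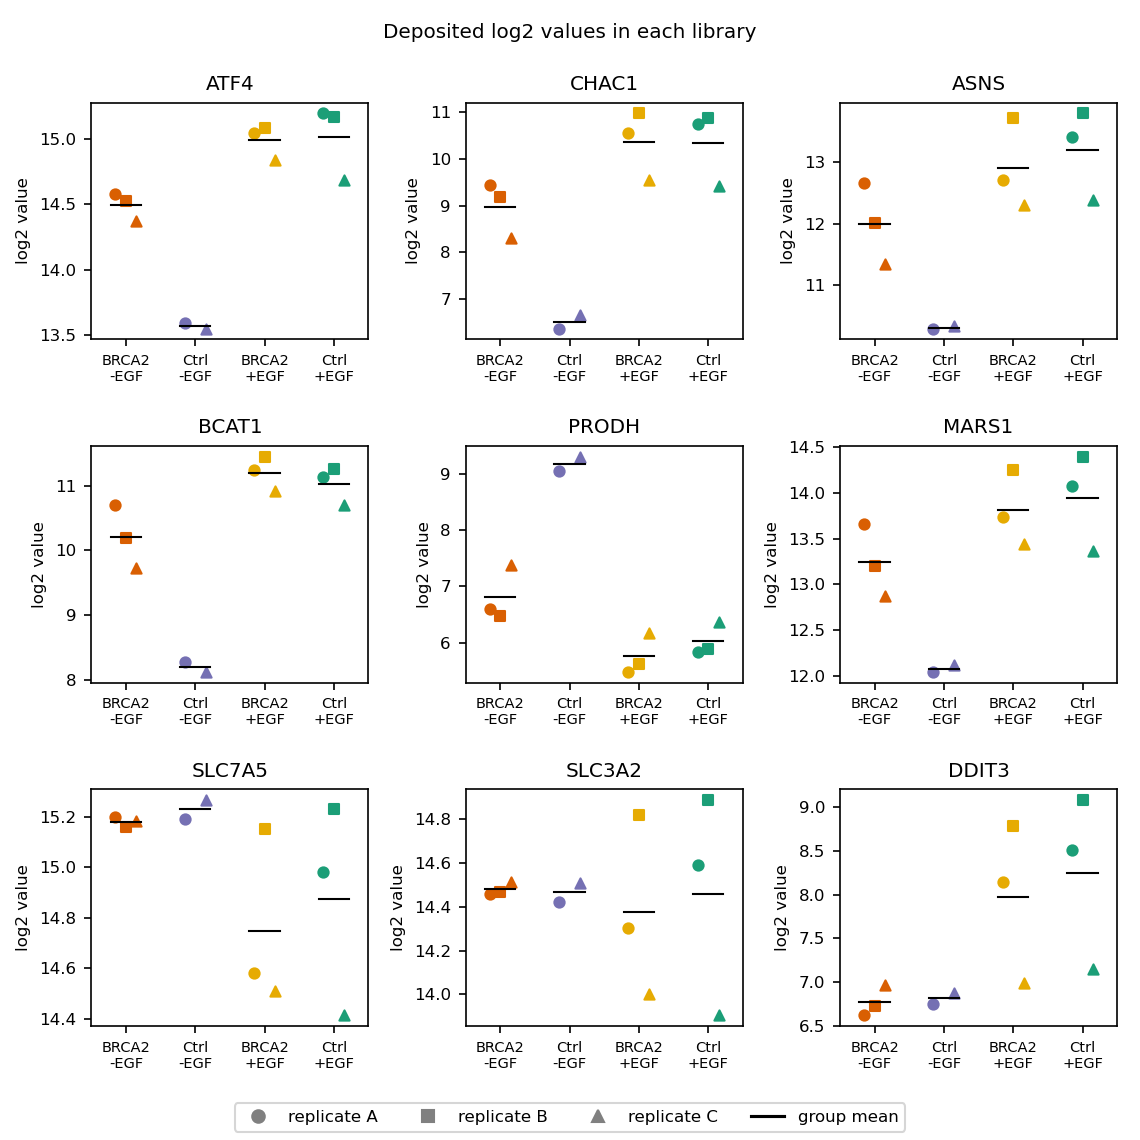
Deposited log2 values of 9 members in each library, with circles for replicate A, squares for B, triangles for C and a line for the group mean, on axes fitted to each gene. Ctrl and BRCA2 are siRNA labels, and -EGF and +EGF the media. For ATF4, CHAC1, ASNS, BCAT1 and MARS1 the mean of the libraries labelled BRCA2 siRNA without EGF lies between the 2 control means, though its replicate A reaches above control replicate C with EGF in CHAC1, ASNS and MARS1. PRODH runs the other way. SLC3A2 overlaps between media under either label, and SLC7A5 under control siRNA only.

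Enzymes of serine, asparagine, proline and branched-chain amino acid metabolism fell together, except PRODH. ASNS was at 10.30 and 10.33 in control libraries without EGF, against 13.40, 13.79 and 12.38 with EGF. Both libraries without EGF lay at least 2 log2 units below the lowest with EGF. The fall was 7.34-fold (-2.88 ± 0.48, limma adjusted p = 0.000551). BCAT1, the cytosolic branched-chain aminotransferase, was at 8.27 and 8.12 without EGF, against 11.14, 11.26 and 10.70 with EGF. It fell 7.15-fold (-2.84 ± 0.26, adjusted p = 1.91e-05 in limma), the smallest p of any member. All 3 enzymes that make serine from a glycolytic intermediate fell, PHGDH by 1.92 ± 0.32, PSAT1 by 2.64 ± 0.39 and PSPH by 1.37 ± 0.21. The mitochondrial one-carbon enzymes SHMT2 and MTHFD2 fell by 1.50 ± 0.24 and 2.00 ± 0.33. ALDH18A1 and PYCR1, which build proline, fell by 0.49 ± 0.11 and 1.59 ± 0.30. Of the transsulfuration pair, CBS fell by 2.58 ± 0.51 and CTH by 0.73 ± 0.19. CTH was at 7.16 and 7.07 in control libraries without EGF, against 8.03, 8.01 and 7.50 with EGF. Its call was lost without control replicate C without EGF (-0.69, adjusted p = 0.0523 in limma).

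PRODH encodes proline dehydrogenase, the mitochondrial enzyme that starts proline breakdown. It was at 9.05 and 9.31 in control libraries without EGF, against 5.84, 5.89 and 6.37 with EGF. The libraries without EGF lay above all 3 with EGF. PRODH rose 8.85-fold (3.15 ± 0.29, limma adjusted p = 1.98e-05) while the proline-building genes ALDH18A1 and PYCR1 fell. PRODH shares 675 exon bases with DGCR6 on the opposite strand. DGCR6 ranged over 4.67 to 6.11 in all libraries.

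Transporters had the smallest median, -0.35. SLC1A4, which carries alanine, serine and cysteine, was at 8.20 and 8.24 in control libraries without EGF, against 9.88, 10.39 and 8.76 with EGF. It fell by 1.46 ± 0.45 (adjusted p = 0.0187 in limma), a call lost without any 1 of the control libraries other than replicate C with EGF (-1.48 to -1.10, adjusted p up to 0.0867). The glutamine carrier SLC38A1 was at 14.82 and 14.76 without EGF, against 15.26, 15.42 and 15.07 with EGF. The cationic amino acid carrier SLC7A1 was at 12.23 and 12.32, against 12.88, 12.82 and 12.50. Both fell by 0.46 with SE of 0.16 and 0.17, and under quantile normalization neither passed (-0.30 and -0.21). SLC38A1 was also lost without any 1 of the same 4 control libraries (adjusted p up to 0.125 in limma). SLC7A1 was lost in 8 of the 11 fits that left out a library, all but those without BRCA2-labelled replicates B or C with EGF or control replicate C with EGF (adjusted p up to 0.192 in limma). SLC7A5 and SLC3A2 form the heterodimer that imports leucine. SLC7A5 was at 15.19 and 15.27 in control libraries without EGF, against 14.98, 15.23 and 14.41 with EGF. SLC3A2 was at 14.42 and 14.51 without EGF, inside the 14.59, 14.89 and 13.91 with EGF. Neither passed, with 0.35 ± 0.22 for SLC7A5 and 0.01 ± 0.26 for SLC3A2. The 95% interval of SLC7A5 ran from -0.13 to 0.84 and that of SLC3A2 from -0.56 to 0.58. Under quantile normalization SLC7A5 was called higher, at 0.51. SLC38A2, a glutamine carrier known to be induced when amino acids are scarce, was at 16.43 and 16.47 without EGF, against 16.87, 16.91 and 16.29 with EGF, and did not pass (-0.24 ± 0.22). SLC1A5 (-0.24 ± 0.20) and SLC6A9 (-0.73 ± 0.39) did not pass either.

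Synthetases, the enzymes that charge tRNAs with their amino acids, all fell. Their log2 differences ran from -1.87 to -0.89, and none of the 10 calls was lost when a library was left out. MARS1, for methionine, was at 12.04 and 12.12 in control libraries without EGF, against 14.08, 14.40 and 13.36 with EGF. It fell 3.64-fold (-1.87 ± 0.31, limma adjusted p = 0.000532). GARS1, for glycine, was at 12.19 and 12.33 without EGF, against 14.07, 14.02 and 13.60 with EGF. WARS1, for tryptophan, was at 11.15 and 11.09, against 12.76, 13.09 and 12.26. In all 3 genes both libraries without EGF lay over 1 log2 unit below every library with EGF. GARS1 fell by 1.64 ± 0.23 and WARS1 by 1.58 ± 0.25. Smaller falls were those of NARS1 (-0.89 ± 0.16) and SARS1 (-1.04 ± 0.23), for asparagine and serine.

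**Figure D3:**
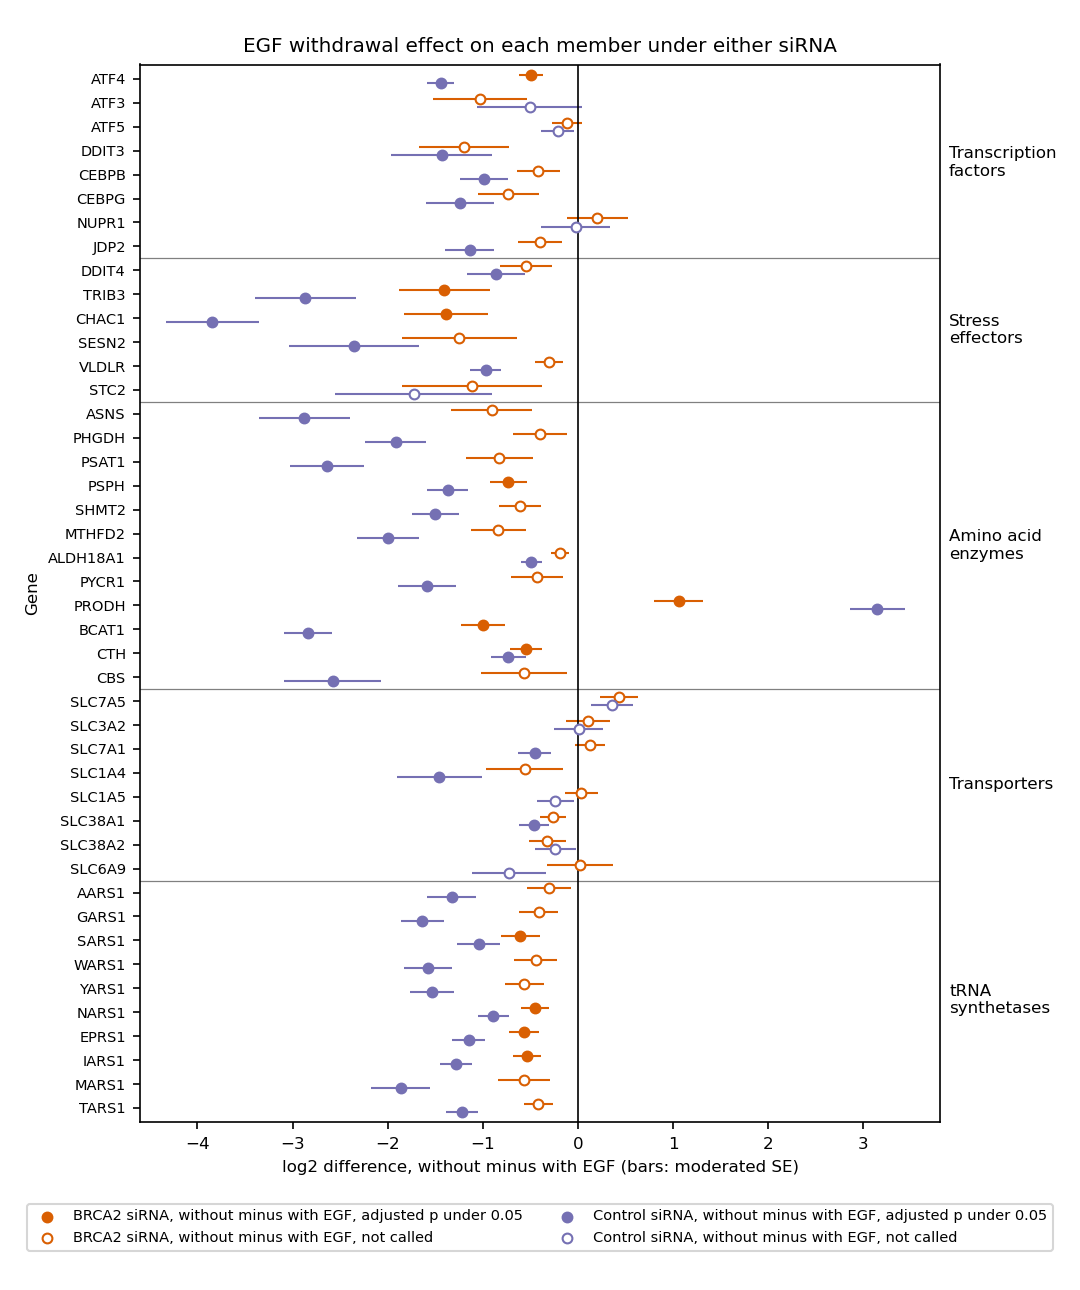
Log2 difference without minus with EGF for each member, with bars of 1 moderated SE, under the BRCA2 siRNA label (orange) and control siRNA (purple). Filled points passed an adjusted p of 0.05, which 11 members did under the BRCA2 label and 35 under control siRNA. Of all genes 27.1% and 50.8% passed.

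Fewer members passed the test on withdrawal under the BRCA2 siRNA label, as did fewer of all genes, 27.1% against 50.8% under control siRNA. In limma 10 members fell, 1 rose and 33 did not pass. The share called in either direction was near that of all genes, of which 13.8% were lower and 13.4% higher. The median log2 difference was -0.52 over the members and 0.00 over all genes. In 15 members every library without EGF lay below every library with EGF, and in 2 above, arrangements found in 24.4% and 22.2% of all genes. The 10 that fell were ATF4, TRIB3, CHAC1, PSPH, BCAT1, CTH, SARS1, NARS1, EPRS1 and IARS1, and PRODH rose. ATF4 was at 14.58, 14.52 and 14.37 in libraries labelled BRCA2 siRNA without EGF, against 15.04, 15.08 and 14.84 with EGF. The groups did not overlap, and ATF4 fell by 0.50 ± 0.13 (limma adjusted p = 0.0175). It did not pass under quantile normalization (-0.28), without BRCA2-labelled replicate A with EGF (-0.47) or without its replicate C without EGF (-0.44). BCAT1 was at 10.70, 10.19 and 9.72 without EGF, against 11.24, 11.45 and 10.92 with EGF. It fell by 1.00 ± 0.23 (limma adjusted p = 0.00993). BCAT1 alone of the 11 was called whichever library was left out. CHAC1 was at 9.45, 9.18 and 8.31 in libraries labelled BRCA2 siRNA without EGF, against 10.57, 10.98 and 9.56 with EGF, and fell by 1.39 ± 0.44 (adjusted p = 0.0372 in limma). TRIB3 was at 11.26, 10.87 and 10.53, against 12.07, 13.25 and 11.55, and fell by 1.40 ± 0.47 (adjusted p = 0.0479 in limma). PRODH was at 6.59, 6.46 and 7.38 without EGF, against 5.48, 5.62 and 6.17 with EGF, and rose by 1.06 ± 0.26. The groups did not overlap in CHAC1, TRIB3 or PRODH. PRODH was lost without the same 2 libraries as ATF4 (0.92 and 0.78), CHAC1 in 6 and TRIB3 in 8 of the 11 fits that left out a library.

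The count under the BRCA2 label depended on single libraries. The share of all genes called, 27.1% with every library, moved as well. The member count was 2 without BRCA2-labelled replicate A with EGF (12.4% of all genes) or replicate C without EGF (14.7%), 3 without its replicate B without EGF (15.9%) and 4 without its replicate B with EGF (22.6%). It was 7 without control replicate A or C without EGF (23.0% and 23.1%). It was 19 without BRCA2-labelled replicate C with EGF (26.7%), 21 without control replicate C with EGF (34.6%) and 31 without both of these (37.1%). Within replicate letters, the median over the members was -0.26 in A, -0.89 in B and -0.36 in C, and 28, 40 and 34 of the 44 members were lower without EGF. Over all 17945 genes the medians were -0.01, 0.00 and -0.01, and 9191, 8921 and 9131 genes were lower.

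**Figure D4:**
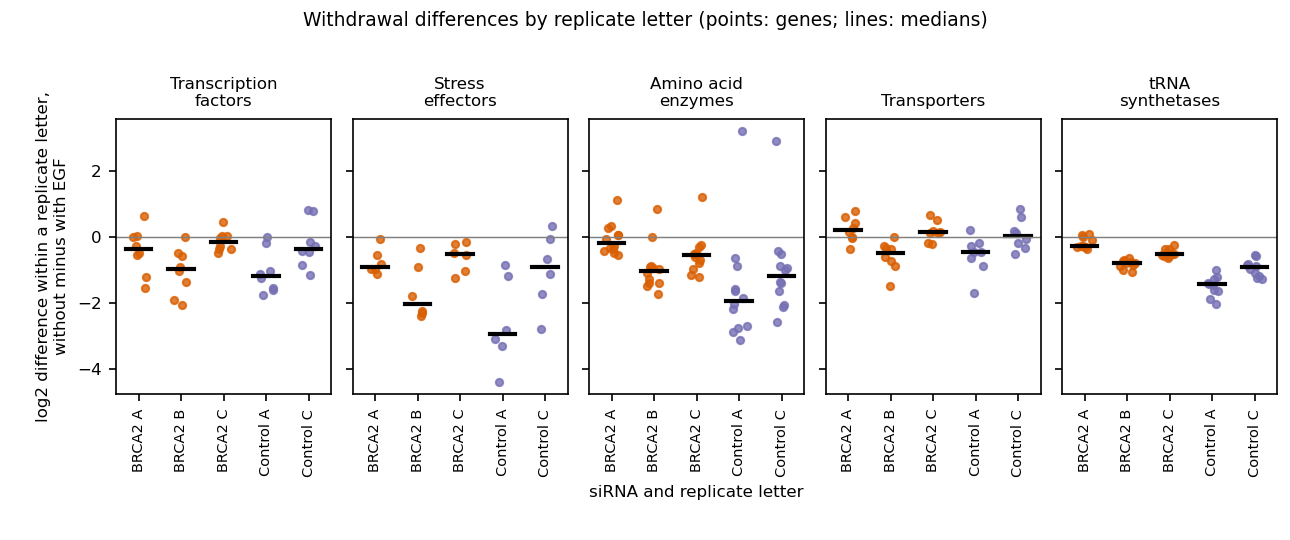
Difference without minus with EGF between libraries of the same siRNA and replicate letter, on the log2 scale, with 1 point for each gene, a panel for each role and lines at medians. BRCA2-labelled medians of letters A and C lie above the control medians of the same letter in every panel, and BRCA2-labelled B has the lowest of the 3 BRCA2-labelled medians in every role.

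Without EGF, many members were higher under the BRCA2 siRNA label than under control siRNA. In limma 20 members were higher, 1 lower (PRODH) and 23 did not pass, where 20.5% of all genes were called (11.2% higher, 9.36% lower). The median log2 difference was 0.64 over the members and 0.01 over all genes. Higher were 9 of 12 enzymes, 8 of 10 synthetases, 2 of 6 stress effectors, 1 of 8 transcription factors and none of the 8 transporters. In 33 members every library labelled BRCA2 siRNA lay above both control libraries, an arrangement seen in 33.2% of all genes. This comparison shares its libraries with the withdrawal comparisons, so the values are given side by side and not as separate support.

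ATF4 was at 14.58, 14.52 and 14.37 in libraries labelled BRCA2 siRNA without EGF, against 13.59 and 13.55 in control libraries without EGF. All 3 were higher, by 0.92 ± 0.14 on average (1.89-fold, limma adjusted p = 0.00274). CHAC1 was at 9.45, 9.18 and 8.31 under the BRCA2 label, against 6.37 and 6.65 under control siRNA. Its difference of 2.47 ± 0.49 (5.55-fold, adjusted p = 0.0069 in limma) was the highest of all 17945 tested genes. BCAT1 was at 10.70, 10.19 and 9.72, against 8.27 and 8.12, a difference of 2.01 ± 0.26 (limma adjusted p = 0.00151). ASNS was at 12.65, 12.01 and 11.34 under the BRCA2 label, against 10.30 and 10.33 under control siRNA. Its replicates spread over more than 1 log2 unit without touching the control values, and the difference was 1.69 ± 0.48 (adjusted p = 0.0291 in limma). Of the serine pathway, PHGDH and PSAT1 were higher by 1.49 ± 0.32 and 1.70 ± 0.39, and PSPH had 0.56 ± 0.21 and did not pass. MARS1 was at 13.66, 13.20 and 12.87, against 12.04 and 12.12, and was higher by 1.16 ± 0.31 (limma adjusted p = 0.022). GARS1 and WARS1 were higher by 1.12 ± 0.23 and 1.02 ± 0.25. SARS1 (0.42 ± 0.23) and NARS1 (0.42 ± 0.16) did not pass.

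PRODH was at 6.59, 6.46 and 7.38 in libraries labelled BRCA2 siRNA without EGF, against 9.05 and 9.31 in control libraries without EGF. It was lower 5.16-fold (-2.37 ± 0.29, adjusted p = 0.00147 in limma), in all 3 libraries. DDIT3 was at 6.62, 6.72 and 6.96 under the BRCA2 label, against 6.75 and 6.87 under control siRNA, overlapping values with a difference of -0.04 ± 0.53. This value was 0.10 under quantile normalization. ATF3 was at 9.35, 9.65 and 9.75, against 10.22 and 10.45. All 3 values lay below both control values, yet ATF3 did not pass (-0.75 ± 0.55, limma adjusted p = 0.361). SLC38A2 was at 16.08, 16.20 and 16.27, against 16.43 and 16.47, and did not pass either (-0.27 ± 0.22). Both passed when the 2 groups without EGF were compared alone, a fit that called 34 members, 31 higher and 3 lower, and 37.8% of all genes.

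Of the 21 calls, ATF4, BCAT1 and PRODH were called whichever library was left out. CHAC1, GARS1 and TARS1 were lost only without control replicate A without EGF, at 2.33, 1.05 and 0.81. The count was 3 without control replicate A (3.48% of all genes), 6 without control replicate C (6.59%), 8 without BRCA2-labelled replicate A (9.26%) and 12 without BRCA2-labelled replicate B (11.4%), all without EGF. Calls were thus lost over all genes, of which 20.5% were called with every library. Without both replicate C libraries with EGF, the count was 29 (28.6% of all genes), 27 higher and 2 lower. With replicates B and C only, which leaves 1 control library, limma called none of the 17945 genes, and 9 members had an unadjusted p under 0.05. The share of all genes with such a p was not counted in that fit. With every library it was 35.29%, and 25 members had one. Within letters, the median difference over the members was 0.88 in A and 0.38 in C, against 0.01 and 0.02 over all genes.

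With EGF, no member differed between the libraries labelled BRCA2 siRNA and control siRNA in limma. Over all genes 0.00557% were called, and 508 genes (2.83%) but no member had an unadjusted p under 0.05. The smallest adjusted p among members was 0.999. ATF4 was at 15.04, 15.08 and 14.84 under the BRCA2 label, against 15.19, 15.17 and 14.68 under control siRNA, which overlap. The groups were apart in no member, against 3.38% of all genes lower and 2.51% higher. The difference of ATF4 was -0.03 ± 0.13, with a 95% interval of -0.31 to 0.26. In 35 of 44 members the interval stayed within 2-fold in either direction. For the members that spread most, such as STC2 (-1.95 to 1.29), larger differences could not have been detected.

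The difference between the 2 withdrawal effects was tested directly as an interaction, the effect under the BRCA2 label minus that under control siRNA. It passed in 3 members in limma, where 3.32% of all genes were called (1.38% higher, 1.93% lower). ATF4 had log2 differences of -0.50 under the BRCA2 label and -1.44 under control siRNA, a difference of 0.95 ± 0.19 (limma adjusted p = 0.0324). BCAT1 had -1.0 under the BRCA2 label and -2.84 under control siRNA, a difference of 1.84 ± 0.34 (adjusted p = 0.0284 in limma). PRODH had 1.06 under the BRCA2 label and 3.15 under control siRNA, a difference of -2.09 ± 0.39 (limma adjusted p = 0.0284). CHAC1 had the highest interaction of all tested genes, 2.46 ± 0.66, and did not pass (adjusted p = 0.0652 in limma). The interaction was above 0 in 41 of the 44 members, against 9345 of 17945 genes.

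None of the 3 interaction calls held in every fit that left out a library. No member was called without control replicate A with EGF, BRCA2-labelled replicate C with EGF, either control library without EGF, or BRCA2-labelled replicate A or B without EGF. In those 6 fits 17 to 19 members had an unadjusted p under 0.05 in limma. The share of all genes with such a p was not counted in these fits. With every library it was 22.18%, and 22 members had one. Few genes of any kind were called in the 6 fits, 62 without BRCA2-labelled replicate A without EGF, 1 without its replicate B without EGF and 0 in the other 4 fits. The member count was 1 without BRCA2-labelled replicate A with EGF (0.875% of all genes), 5 without its replicate B with EGF (2.37%), 9 without its replicate C without EGF (5.80%) and 20 without control replicate C with EGF (8.95%). It was 17 without both replicate C libraries with EGF (5.52%). ATF4 ranged over 0.86 to 1.11, BCAT1 over 1.59 to 2.08 and PRODH over -2.37 to -1.88 in these fits.

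Neighbouring genes of the same pathways were examined as further lists, against the 50.8% of all genes called on withdrawal under control siRNA (26.1% lower, 24.7% higher). Of 13 other cytosolic synthetases and scaffold proteins of their complex, 12 fell on withdrawal under control siRNA and 1 did not pass, with FARSB at -1.11 ± 0.10 and FARSA at -0.83 ± 0.10, the subunits of the phenylalanine enzyme. Under the BRCA2 label 8 of these fell, against 13.8% of all genes. Of 17 mitochondrial synthetases 8 fell under control siRNA, with a median of -0.16. The median was -1.30 over the 10 cytosolic members and -0.76 over the 13 other cytosolic synthetases and scaffold proteins. YARS2 fell by 0.78. Of 10 genes for eIF2alpha, its kinases, phosphatase subunits and regulators, 5 fell and none rose. For this list and the mitochondrial synthetases the share called in either direction was near that of all genes. Every call in both lists was lower, against 26.1% lower and 24.7% higher over all genes. EIF2S1, which encodes eIF2alpha, fell by 0.79 ± 0.10 and EIF2AK4, the kinase GCN2 that senses uncharged tRNA, by 0.58 ± 0.08.

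Of 29 other tested genes of the ATF4 and amino acid response, 17 fell and 3 rose under control siRNA. EIF4EBP1, an inhibitor of cap-dependent translation and an ATF4 target, fell by 2.31 ± 0.30. ASS1, which makes argininosuccinate from aspartate and citrulline, rose by 1.92 ± 0.14, and KLHL24 by 2.07 ± 0.22. Both had smaller rises under the BRCA2 label, by the interaction (-0.94 ± 0.19 for ASS1, -1.59 ± 0.29 for KLHL24, limma adjusted p = 0.0307 and 0.0276). Genes through which mTORC1 senses amino acids were mixed, with 4 of 18 higher and 4 lower, near the shares of all genes. SESN3, a sestrin like SESN2, rose by 1.99 ± 0.20 where SESN2 fell, and RHEB, the GTPase that activates mTORC1, fell by 0.59 ± 0.11.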

How the data were processed

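RNA of 11 libraries was sequenced after ribosomal RNA removal, per the labels' protocols. The authors deposited 1 table of log2 values for 40460 Ensembl genes, from -2.94 to 20.62. The submitters' processing notes name hg19, TopHat2 2.0.11, DESeq2 and limma. Which read counter, annotation and transform were used is not given in the sources used here. The 4 replicate A libraries and the 7 B and C libraries had equal means in every gene (largest difference 7.2e-09), so the deposited values had been centred. Control siRNA without EGF lacked replicate B, so A and the rest hold unequal mixes of groups. The part of the centring in the group differences was not tested. Symbols were matched by Ensembl gene identifier, with RefSeq used where a symbol was missing (37585 genes, 92.9%).

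Values were used as they were, with no pseudocount. The 17945 genes that reached a linear value of 10 (a log2 value of 3.32) in 2 or more libraries were fitted in limma 3.58.1 under R 4.3.3. The model had 4 groups, empirical Bayes moderation with a trend, 7 residual and 4.22 prior degrees of freedom, and no replicate block. Tests were two-sided, Benjamini-Hochberg adjusted over all tested genes within a comparison, at 0.05. Errors after ± are moderated standard errors unless SD is named. The fit was tested on simulated data. Alternatives were no filter, a limit of 100, quantile normalization, groups compared alone, no trend, a replicate block, a term for replicate A, only replicates B and C, and leaving out each library. Leaving out both replicate C libraries with EGF was chosen after seeing the data. In each comparison the depth of the libraries is unknown.

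The members, lists and rules were chosen with earlier results of these data known. Library values are given for ATF4, for up to 3 members of each role with the largest difference past the threshold on control withdrawal, for members whose interaction passed, and for members that went against their role. STC2 was added after its values were seen. For other lists, members with the smallest p are named, except 1 that is not reported here, and for likeness to ATF4 the 5 genes with the highest Pearson r. Promoter sequences are from RefSeq (GRCh38.p14). For ATF4, PSPH and MTHFD2 near-identical copies are in the table (ATF4P3 at most 5.67, PSPHP1 at most 7.22, MTHFD2P1 at most 0.86), and how shared reads were counted is not given.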

Additional observations from a re-analysis of the deposited data

Results flagged for a closer look

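For 3 members the effect of EGF withdrawal differed between the libraries labelled BRCA2 siRNA and the control libraries, by limma's test of the interaction (withdrawal effect under the BRCA2 label minus that under control siRNA). The interaction was 0.95 for ATF4, 1.84 for BCAT1 and -2.09 for PRODH on the log2 scale. The BRCA2 label came with no lower BRCA2 mRNA, and none of the 3 calls held in every fit that left out a library. Groups hold at most 3 libraries, so no test for a single outlying library was made.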

How the results depend on the processing

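Of the 35 calls on withdrawal under control siRNA, 26 held whichever library was left out (27 to 39 members called), and 11 members (11.6% of all genes) were called with only replicates B and C, a fit with 1 control library without EGF. The member count under the BRCA2 label, 11, was 7 with no filter, 7 with quantile normalization, 7 with no trend (9.14%, 22.4% and 25.5% of all genes), 0 with only replicates B and C (0.262%, with 8 members at an unadjusted p under 0.05) and 31 without both replicate C libraries with EGF (37.1%), and 2 to 21 when 1 library was left out. For the BRCA2 siRNA effect without EGF, 21 became 34 with the groups compared alone (37.8%), 0 with only replicates B and C (9 unadjusted) and 3 to 25 when 1 library was left out. For the interaction, 3 became 6 with quantile normalization (4.21%), 0 with only replicates B and C (3 unadjusted), 17 without both replicate C libraries with EGF (5.52%) and 0 to 20 when 1 library was left out (17 to 19 unadjusted where none was called). No member was called for the BRCA2 siRNA effect with EGF in limma under any alternative run, and 0 to 6 members had an unadjusted p under 0.05 there. Shares of all genes with an unadjusted p under 0.05 were counted only with every library. They were 41.15% for withdrawal under the BRCA2 label and 35.29% for the BRCA2 siRNA effect without EGF. For that effect with EGF the share was 2.83%, and for the interaction 22.18%. The cause of these moves in the counts was not tested. Unknown depth leaves the precision of single values unknown.

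The replicate letters were not taken to pair the libraries, since in B and C not every same-letter correlation was over 0.1. Deviations of same-letter libraries from their group means correlated from -0.37 to -0.12 in A, -0.12 to 0.70 in B and -0.13 to 0.70 in C, at 0.70 between the 2 groups with EGF in B and in C. Libraries with EGF thus shared deviations by letter in B and C. Pairs there that included a library without EGF ran from -0.13 to 0.04. Because the deposited mean of A equals that of B and C, deviations in A nearly cancel and cannot show pairing. With a replicate block, 36 members were called on withdrawal under control siRNA (49.6% of all genes), 25 under the BRCA2 label (30.4%), 22 for the BRCA2 siRNA effect without EGF (23.3%), 0 with EGF (none unadjusted) and 14 for the interaction (5.18%). The main fit, without the block, called 11 members under the BRCA2 label (27.1%) and 3 for the interaction (3.32%). With a term for replicate A, 33 members (47% of all genes) were called on withdrawal under control siRNA and 8 (21.9%) under the BRCA2 label. For the BRCA2 siRNA effect 19 (17.6%) were called without EGF and 0 with EGF, and 3 (2.79%) for the interaction.

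Directions turned only among values that did not pass. On withdrawal under control siRNA, NUPR1 had 0.18 with quantile normalization, 0.16 with the replicate block, 0.080 with only replicates B and C and -0.43 to 0.33 with 1 library left out. SLC3A2 had -0.27 without both replicate C libraries with EGF and -0.27 to 0.22 with 1 library left out. Under the BRCA2 label, with only replicates B and C, SLC7A1 had -0.028 and NUPR1 -0.011. SLC3A2 had -0.079 without both replicate C libraries with EGF and -0.079 to 0.33 with 1 library left out. For the BRCA2 siRNA effect without EGF, quantile normalization gave 0.10 for DDIT3, -0.071 for SLC3A2 and 0.053 for CTH, and the replicate block gave -0.13 for SLC3A2 and -0.045 for NUPR1. With only replicates B and C, SLC3A2 had -0.017 and NUPR1 -0.024. With 1 library left out, DDIT3 ranged over -0.14 to 0.029 and SLC3A2 over -0.028 to 0.059.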
